A study of Mus musculus with 2 samples.

Results

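The cells described here are the Barx1-positive mesenchymal cells of the wild-type (WT) aorta-gonad-mesonephros (AGM) region, a piece of the embryo's trunk that holds the dorsal aorta, the gonadal ridge and the mesonephros. They were chosen by their own counts. A barcode was kept when it held 2000 or more unique molecular identifiers (UMIs, 1 per captured RNA molecule) and under 10% UMIs of mitochondrial genes, and a kept barcode was a member when it held 2 or more UMIs of Barx1 and 1 or fewer of Epcam, an epithelial adhesion molecule. The rule found 377 of the 8253 kept WT barcodes (4.57%, 95% exact binomial interval 4.13 to 5.04%), out of 16418 kept barcodes in the WT and PDGFRβ-knockout (KO) libraries. Barx1 chose these cells, so its level in them is a description and no finding.

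Both libraries came from whole dissected AGM regions of mouse embryos at embryonic day 11 of a line carrying a constitutive Pdgfrb deletion and kept as heterozygotes on C57BL/6J. The WT library was from PDGFRB +/+ embryos and the KO library from PDGFRB -/- embryos, with no treatment. Each genotype was sequenced as 1 library with 10x Chromium 3′ reagents (7000 cells were aimed at per library), and whether a library pooled several embryos was not given in the sources used here. The WT library held 179743201 UMIs and the KO library 174597654, and the same limits kept 8165 KO barcodes. With 1 library per genotype no test was made anywhere below, and the 95% intervals cover counting error only.

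Pdgfrb, the deleted gene, was at 43.1 counts per 1000000 UMIs (CPM, a gene's UMIs scaled to those of all genes) over all kept WT barcodes and at 7.09 CPM in KO, a log2 ratio of -2.60, and whether its counted 3′ end lies within the deleted part was not tested. The libraries also stood apart in other genes. Xist, expressed from the inactive X chromosome, was at 793 CPM (WT) and 0.415 CPM (KO), and the Y-linked Ddx3y was at 0.00666 CPM in WT and 56.7 in KO. Library, genotype and sex of the embryos therefore changed together and cannot be told apart in any difference between WT and KO, and whether the same neighbouring tissue was dissected in both was not tested. Other tissue markers differed between the libraries too. Erythroid barcodes, with 50% or more globin UMIs, were 7.89% of kept barcodes in WT and 2.42% in KO, and skeletal muscle markers summed to 50.9 CPM and 104.7 CPM. Shh, a signal of gut epithelium and notochord, had 138 and 20 UMIs, Ctrb1, a pancreatic enzyme, 6 and 174, and Wnt2, of lung and gut mesenchyme, 32.1 CPM and 11.1 CPM. Ctrb1 did not stand for its list, since the 13 pancreatic markers summed to 18.2 CPM (WT) and 17.6 CPM (KO). Cpa1, another of these 13, went the other way, with 342 UMIs (WT) and 260 (KO). The part of these tissue markers in the Barx1 difference was not tested. The libraries shared 20 kept barcode sequences, none of them a member.

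Barx1 encodes a homeobox transcription factor known from the mesenchyme of the developing stomach, where it acts on the overlying epithelium, in part through secreted Wnt antagonists, and is needed for stomach identity and for the growth of the nearby spleen. The splenic primordium arises in the mesenchyme beside the stomach and depends on transcription factors such as Tlx1, Nkx2-5, Nkx3-2, Wt1 and Tcf21. Mesenchyme around the gut tube responds to hedgehog signals from the epithelium, through Foxf1 among others, and its outer layer becomes smooth muscle.

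Barx1 lies on chromosome 13, 48662998 to 48666507, forward strand (GRCm38, GENCODE M21). The members held 2 to 102 Barx1 UMIs with a median of 7, and 137 of them held 2 to 4, 100 held 5 to 9 and 140 held 10 or more. Just inside the limit, 71 members held 2 UMIs, and just outside it 249 barcodes held 1 Barx1 UMI and 1 or fewer of Epcam. The plot of Barx1 UMIs per barcode shows how these counts were spread in both libraries.

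**Figure D1:**
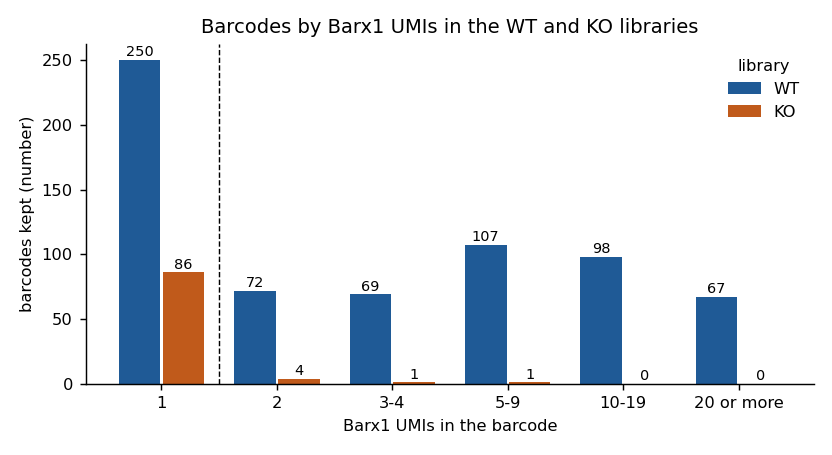
Kept barcodes by their Barx1 UMIs in the WT and the KO library, with the number of barcodes in each bin. WT had 67 barcodes with 20 or more Barx1 UMIs and KO had none, while WT had 250 with 1 and KO 86.

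Members with 2 Barx1 UMIs, just inside the limit, were shallower (median 11928 UMIs) than barcodes with 1, just outside it (17011). Foxf1, a hedgehog-responsive factor of gut mesenchyme, was at 40.9 CPM (31.4 to 52.5) inside and 33.0 CPM (28.8 to 37.6) outside, with overlapping intervals. Penk, the precursor of the enkephalin peptides, was at 17.8 CPM (11.8 to 25.9) inside and 5.57 CPM (3.94 to 7.65) outside. Tcf21, a factor of visceral mesenchyme, was at 178 CPM (158 to 201) inside and 79.2 CPM (72.6 to 86.1) outside. Of erythroid barcodes, defined by globin UMIs of 50% or more and not expected to express Barx1, 12 of 651 (1.84%) held a Barx1 UMI. The Epcam limit left out 36 barcodes that held 2 or more Barx1 UMIs and 2 or more of Epcam. Their Barx1 level was 578.7 CPM and their Foxf1 level 127 CPM, against 487 and 118 CPM in the members. Over 10011 genes, 205 (2.05%) were 2-fold or more higher in these 36 than in the members and 188 (1.88%) lower, a comparison added after values were seen. The highest log2 ratio was that of Ppbp, a platelet chemokine, at 383 against 0.488 CPM, with a UMI in 8.33% of the 36 barcodes, and Pf4, a platelet factor, was at 1358 against 6.83 CPM, with a UMI in 5.56%. Thbs1 (100.5 against 6.83 CPM) and Cd9 (121 against 11.7 CPM) were detected in 25% and 52.8%. All 4 neural crest and neuronal markers counted were higher (155 against 38.9 CPM in sum), and all 10 erythroid markers were lower (1828 against 9997 CPM). The part of other cell types in these barcodes was not tested.

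The members summed to 8203656 UMIs, with a median of 15597 UMIs (2009 to 144625), 3843 genes and 5.39% mitochondrial UMIs per cell. The comparison population, called other mesenchyme here, was the 4862 kept WT barcodes with a UMI of Col1a2, a fibrillar collagen chain, and none of Barx1. Their median was 14774 UMIs, so depth was nearly level between the 2 sides. Collagen was not asked of the members, and 99 of the 377 held no Col1a2 UMI. Those 99 were shallow, with a median of 4379 UMIs and 1506 genes, and had a median of 1.09% mitochondrial UMIs. Under 2.5% mitochondrial UMIs were found in 56 of them (56.6%), against 8 of the 278 members with Col1a2 (2.88%) and 3.52% of other mesenchyme. Their Foxf1 level was 178 CPM, against 112 CPM in the other members.

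Markers of other cell types and of neighbouring mesenchyme were counted in the members. Of the 377, 4 held UMIs of 3 or more macrophage markers, 4 of endothelial markers, 1 of skeletal muscle markers and none of gastric, pancreatic or hepatic epithelial markers, while 24 (6.37%) held 3 or more markers of epithelia in general, as did 6.33% of other mesenchyme. Lists that mesenchyme shares were met more often, with 3 or more limb and body wall markers in 105 members (27.9%, against 32.0% of other mesenchyme), sclerotome markers in 48 (12.7%, against 30.1%), coelomic epithelial markers in 31 (8.22%, against 4.32%) and respiratory mesenchyme markers in 16 (4.24%, against 4.55%). Erythroid markers, 3 or more to a cell, were in 61.8% of members and 61.1% of other mesenchyme. The erythroid list summed to 9997 CPM in the members and 13102 in other mesenchyme, led by Hbb-y, and 7 members had 5% or more globin UMIs. The macrophage list summed to 103.49 CPM and 120.65 CPM, with C1qb its most abundant gene. With barcodes of much globin RNA or a Ptprc, Pecam1, Sox10 or second Epcam UMI left out of other mesenchyme alone, the median log2 ratios of these lists turned from -0.39 to 4.58 (erythroid) and from -0.27 to 3.53 (macrophage). Foxa2, Cldn4 and Cdh1 were at 0 UMIs in the members, as were 8 of the 10 gastric epithelial markers, 4 of which (Gkn1, Gkn2, Tff2 and Cldn18) were at 0 in all kept WT barcodes. Scrublet placed 42 members (11.1%) among the 6% of WT barcodes with the highest doublet scores, against 7.98% of other mesenchyme.

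The name gastro-splenic mesenchyme was checked against its 3 markers. Tlx1 (chromosome 19, 45150680 to 45156943), needed for growth of the spleen, had a UMI in 35 of the 377 members (9.28%), and Nkx2-5 (chromosome 17, 26838664 to 26845009), a factor of the heart and of the splenic and pyloric mesenchyme, in 36 (9.55%). Both were found in 21 members. Nkx3-2, another factor of gastric and splenic mesenchyme, was at 0.24 CPM. At this depth the splenic markers were thus found in a minority, and the cells are called Barx1-positive mesenchyme here. Tlx1 UMIs were also found outside the members. They were in 1 of 651 erythroid barcodes (0.154%), and Tlx1 was at 4.43 CPM in WT free RNA. Of 156 WT barcodes with a Tlx1 UMI, 113 held no Barx1 UMI, 7 held 1, 1 exceeded the Epcam limit and 35 were members, and 95 of the 156 held 2 or more Tlx1 UMIs.

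Over 14422 genes with 50 or more UMIs in both populations together, 223 (1.55%) were 2-fold or more higher in the members than in other mesenchyme and 1208 (8.38%) were 2-fold or more lower. Without the barcodes of highest doublet score the counts were 262 and 1315. The 2 shares are the background for every list below, and the median log2 ratio of all genes was -0.06. Penk, Nwd2, Fgf9, Nkx2-3 and Kcnj8 had the highest log2 ratios among genes with 200 or more UMIs and a UMI in 10% or more of the cells of the higher population, and Actg2, Igfbp7, Cryab, Heyl and Bmp2 the lowest. The plot of the leading genes gives the 15 at each end.

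**Figure D2:**
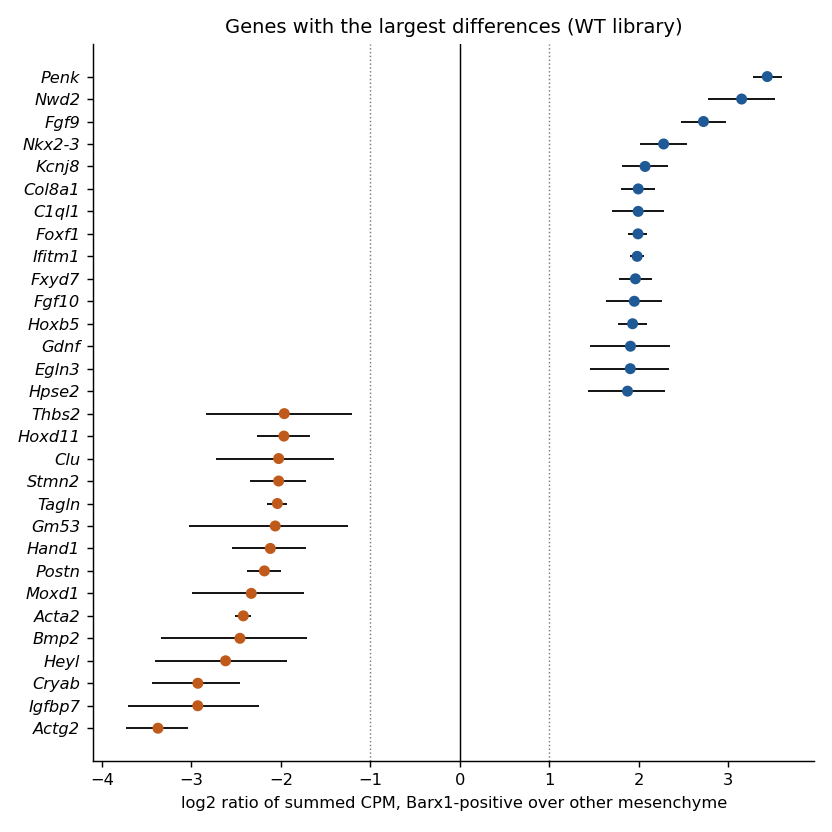
Log2 ratio of the CPM of members over other mesenchyme for the 15 highest and 15 lowest genes among those with 200 or more UMIs and a UMI in 10% or more of the cells of the higher population, with 95% intervals for counting error. Within these limits the highest was Penk at 3.44 and the lowest Actg2 at -3.37.

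Penk (chromosome 4, 4133531 to 4138819) was at 71.9 CPM (66.2 to 78.0) in the members and 6.65 CPM in other mesenchyme, a log2 ratio of 3.44 (3.27 to 3.60, counting error). It had a UMI in 27.1% of members and 7.42% of other mesenchyme, and in 0.307% of erythroid barcodes. It was uneven among the members, since 10 cells held 48.0% of its UMIs.

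Among the transcription factors of gut mesenchyme, some were higher and some lower in the members. Foxf1 (chromosome 8, 121084386 to 121088144) was at 118 CPM in the members and 29.6 CPM in other mesenchyme, a log2 ratio of 1.99 (1.89 to 2.10). Unlike Penk it was spread widely, with a UMI in 69.2% of members against 23.5% of other mesenchyme, and the 10 richest cells held 13.1% of its UMIs. Nkx2-3 (chromosome 19, 43612325 to 43615892), a factor of gut and splenic mesenchyme, was at 20.5 CPM against 4.22 CPM, a log2 ratio of 2.28 (2.01 to 2.54). Its UMIs were in 13.3% of members and 3.11% of other mesenchyme, so most members lacked it at this depth, and the log2 ratio ran from 1.67 with 3 or more Barx1 UMIs asked of a member to 2.70 with a mitochondrial limit of 5%. Tcf21 (chromosome 10, 22817281 to 22820174) reached 185 CPM against 77.8 CPM, a log2 ratio of 1.25, and Hand2, a factor of visceral and limb mesenchyme, 91.9 CPM against 41.1 CPM, a log2 ratio of 1.16.

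Across the list of gastric and splenic transcription factors, 6 of 30 genes counted were 2-fold or more higher and 5 were 2-fold or more lower, with a median log2 ratio of 0.00. The higher ones were Foxf1, Nkx2-3, Tcf21, Hand2, Tlx1 (19.5 against 3.43 CPM, log2 ratio 2.51) and Nkx2-5 (11.6 against 1.20 CPM, 3.27). Hand1, which marks lateral mesoderm derivatives, was on the opposite side, at 6.34 CPM against 27.5 CPM, a log2 ratio of -2.12. This ratio was -3.20 with a mitochondrial limit of 5% and -2.65 without the highest doublet scores. Gata3 stood at 4.3 CPM against 15.6 CPM, more than 2-fold lower, as was Sox9, a cartilage and epithelial progenitor factor, at 45.2 CPM against 100.3 CPM. Foxf2, the relative of Foxf1, differed little, at 16.6 CPM against 15.5 CPM. Isl1 at 99.3 CPM against 91.8 CPM was also within 2-fold, and so was Wt1, with 59.3 CPM in other mesenchyme and a log2 ratio of -0.25.

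Several secreted factors stood high in the members. Fgf9 (chromosome 14, 58070547 to 58112720), a fibroblast growth factor that acts on mesenchyme of the gut and lung, was at 24.9 CPM against 3.77 CPM, a log2 ratio of 2.72 (2.47 to 2.97), with 60.3% of its UMIs in 10 cells. Fgf10 (chromosome 13, 118669791 to 118792115), a mesenchymal signal to epithelial buds, was at 13.7 CPM against 3.53 CPM, a log2 ratio of 1.95 (1.63 to 2.26), in 21.0% against 4.98% of cells. Gdnf, the ligand that draws enteric neural crest into the gut and the ureteric bud into the kidney, was at 6.83 CPM against 1.82 CPM, a log2 ratio of 1.91. Of the 16 FGF pathway genes counted, Fgf9 and Fgf10 were 2-fold or more higher and 3 were 2-fold or more lower, with a median log2 ratio of -0.05. The lower ones were Fgf18 and the receptors Fgfr3 and Fgfr4, and Fgfr4 had a log2 ratio of -3.74.

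Wnt pathway genes were mostly within 2-fold or lower. Rspo1 (chromosome 4, 124986430 to 125009099), a secreted agonist of Wnt signalling, was at 44.7 CPM against 13.3 CPM, a log2 ratio of 1.75, and was the 1 of 12 Wnt ligands and agonists counted that was 2-fold or more higher, while 2 were lower. The lower ones were Wnt2, at 17.7 CPM against 39.8 CPM, and Rspo2, with a log2 ratio of -1.38. Of the 12 Wnt antagonists counted, 1 was 2-fold or more higher and 6 were lower, with a median log2 ratio of -0.53. The higher one was Notum, a carboxylesterase that inactivates Wnts, at 8.2 CPM against 3.6 CPM, whereas the lower ones took in Sfrp2 at 77.4 CPM against 170 CPM and Dkk1 at 2.3 CPM against 7.9 CPM. Sfrp1, the most abundant of them in the members, was at 238 CPM against 197 CPM. Of 10 Wnt response genes, Tnfrsf19 was higher, at 28.5 CPM against 13.1 CPM, and 1 was lower.

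Hedgehog, BMP and retinoic acid genes showed smaller or opposite differences. Of 13 hedgehog response genes 1, Foxf1 itself, was 2-fold or more higher, and the pathway's receptor and target Ptch1 was at 86.7 CPM against 76.6 CPM. None of 23 BMP and TGF-beta genes was 2-fold or more higher and 5 were lower, with a median log2 ratio of -0.60. Bmp2, a secreted ligand, was at 1.71 CPM against 9.37 CPM, a log2 ratio of -2.46 from 14 UMIs in the members. In thinned cells the log2 ratio of Bmp2 was -0.99 or lower, with 3 counts as the limit. That depth cannot show a difference as large as that of the full counts. None of 15 retinoic acid genes was 2-fold or more higher and 4 were lower, among them the binding protein Crabp1 at 149 CPM against 410 CPM.

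Contractile genes were lower as a group. Of the 12 smooth muscle genes, 8 were 2-fold or more lower and none was higher, with a median log2 ratio of -1.37. The list summed to 501 CPM in the members and 1662 CPM in other mesenchyme. Actg2 (chromosome 6, 83512905 to 83536265), the enteric smooth muscle actin, was at 8.53 CPM against 88.4 CPM, a log2 ratio of -3.37 (-3.73 to -3.03). Acta2 (chromosome 19, 34241090 to 34255590), the vascular smooth muscle actin, was at 124 CPM against 664 CPM, a log2 ratio of -2.42 (-2.51 to -2.33), and Tagln, an actin-binding protein, at 82.2 CPM against 338 CPM. Even these low levels came from few cells, since 10 members held 73.8% of the Acta2 UMIs and 79.8% of the Tagln UMIs, and 1 member held 48.5% of the latter. The log2 ratios moved with the choice of cells, but kept their sign under the alternatives tried. That of Acta2 ran from -3.24 in cells thinned to 2000 UMIs to -2.39 after TMM scaling, that of Tagln from -3.38 without barcodes over 60000 UMIs to -1.82 with Epcam at 0, and that of Actg2 from -4.87 in thinned cells to -2.86 with a mitochondrial limit of 5%.

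Extracellular matrix genes were also lower in part. Of 24 stromal matrix genes counted, 1 was 2-fold or more higher and 7 were lower, with a median log2 ratio of -0.71. Postn, a matrix protein of connective tissue, was at 29.5 CPM against 134 CPM, Lum, a small proteoglycan, at 48.0 CPM against 168 CPM, and Col1a1 at 281 CPM against 628 CPM. The log2 ratio of Postn was -2.18, and -3.43 with a mitochondrial limit of 5%. Since other mesenchyme was chosen by a Col1a2 UMI and the members were not, collagen levels carry that choice. Col14a1, a collagen that binds along fibrils, was the gene on the higher side, at 56.8 CPM against 28.3 CPM. Col8a1 lay outside the list, at 35.4 CPM against 8.87 CPM, a log2 ratio of 1.99.

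Cell cycle genes did not set the members apart at 2-fold. None of 33 S phase genes or 49 G2 and M phase genes differed 2-fold in either direction, with medians of 0.16 and 0.01. Marker lists of neighbouring tissues were mostly at or below the median of all genes. All 10 neural crest and neuronal markers and 8 of 9 endothelial markers were 2-fold or more lower, and 5 of 7 sclerotome markers were. With barcodes of other mesenchyme that held Pecam1, Ptprc, Sox10, Epcam or much globin RNA left out, the medians of the first 2 lists moved from -2.25 to -0.98 and from -2.75 to -0.96, and that of the sclerotome list from -1.15 to -1.28. Lhx9, a gonadal and limb factor, was an exception in the gonadal list at 38.5 CPM against 11.9 CPM, a log2 ratio of 1.69, but its UMIs were in 38 of the 377 members and 10 cells held 74.1% of them. Pitx1, known from hindlimb mesoderm, was at 105 CPM against 68.0 CPM. Cpa1, a pancreatic carboxypeptidase, had a log2 ratio of 2.01, but its list was not higher as a whole. Of 4 pancreatic markers counted, 1 was 2-fold or more higher and 1 lower, with a median log2 ratio of -0.11. The list summed to 10.85 CPM in the members against 19.02 CPM. The pancreatic factors Ptf1a and Pdx1 had too few UMIs (2 and 6 in all kept WT barcodes) to be read.

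Ifitm1, a surface protein of early mesoderm, was the most widely found of the 15 leading genes, with a UMI in 74.3% of members and 24.8% of other mesenchyme, and it was at 215 CPM against 54.4 CPM, a log2 ratio of 1.98 (1.90 to 2.06). Kcnj8, a subunit of an ATP-sensitive potassium channel, was at 20.5 CPM against 4.88 CPM, and Nwd2, whose role is little known, at 12.4 CPM against 1.40 CPM, a log2 ratio of 3.15 (2.77 to 3.53). With a mitochondrial limit of 5% the log2 ratio of Kcnj8 went from 2.07 to 3.20 and that of Nwd2 to 4.16. The remaining leading genes on the higher side were C1ql1, Fxyd7, Hoxb5, Egln3 and Hpse2, with log2 ratios between 1.87 and 1.99.

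To compare cells at the same depth, each cell was thinned to 2000 UMIs. Foxf1 then had a UMI in 25.2% of members and 5.80% of other mesenchyme, Ifitm1 in 31.0% and 6.77%, and Tcf21 in 30.0% and 10.0%. Penk had one in 8.75% and 1.25%, and Rspo1 in 11.9% and 2.37%. For Fgf9 the shares were 3.98% and 0.658%. The order of the 2 populations was the same as at full depth for each of these 6 genes.

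Hox genes, which mark position along the body axis, differed by their place in the clusters (lists by paralog group, drawn up after values were seen). Of 17 genes of groups 1 to 6, 8 were 2-fold or more higher in the members and 2 lower, with a median log2 ratio of 0.98. Of 9 genes of groups 7 to 9, 2 were higher and 5 lower, with a median of -1.08, and of 9 genes of groups 10 to 13 none was higher and all 9 were lower, with a median of -1.54. The plot of Hox genes sets them out by cluster and group.

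**Figure D3:**
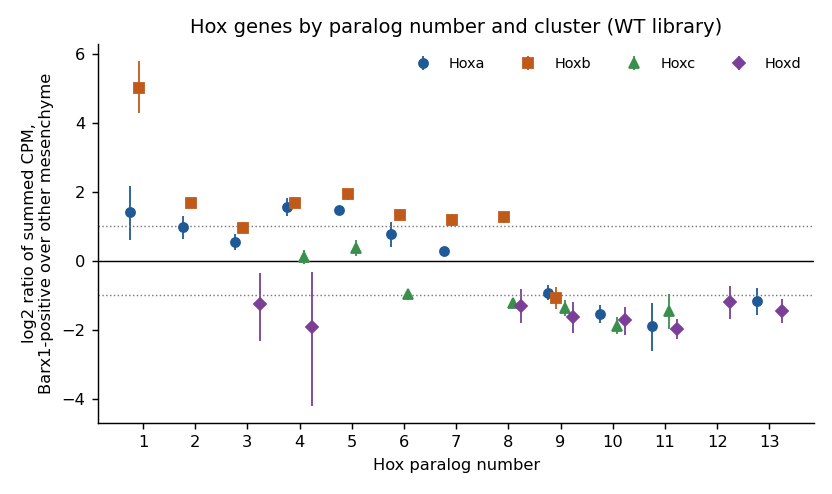
Log2 ratio of the CPM of members over other mesenchyme for the Hox genes counted, by paralog group on the horizontal axis and by cluster. Values run from 5.02 for Hoxb1 to below 0 for every gene of groups 10 to 13.

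The Hoxb cluster held most of the higher genes. Hoxb1 (chromosome 11, 96365752 to 96368256), the most anterior, was at 6.95 CPM in the members and 0.214 CPM in other mesenchyme, a log2 ratio of 5.02 (4.29 to 5.80), on 57 and 22 UMIs. It had a UMI in 10.9% of members against 0.309% of other mesenchyme, and in none of the 651 erythroid barcodes. Hoxb2 was at 71.6 CPM against 22.3 CPM, Hoxb4 at 93.3 CPM against 28.9 CPM and Hoxb5 at 48.6 CPM against 12.8 CPM. Hoxb8 was still higher in the members, at 47.5 CPM against 19.7 CPM, and Hoxb9, the next gene along, was lower, with a log2 ratio of -1.08.

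In the Hoxa cluster the sign changed between Hoxa7 and Hoxa9, and the Hoxc and Hoxd genes named here were lower. Hoxa5, needed for gut and lung mesenchyme, was at 89.8 CPM against 32.3 CPM, Hoxa7 at 133 CPM against 109 CPM, Hoxa9 had a log2 ratio of -0.92 and Hoxa10 was at 16.3 CPM against 47.5 CPM. Hoxc6 had a log2 ratio of -0.98, Hoxc8 was at 98.5 CPM against 229 CPM and Hoxc10 at 16.9 CPM against 62.5 CPM. In the Hoxd cluster, Hoxd3 had a log2 ratio of -1.25, Hoxd11 was at 12.1 CPM against 47.1 CPM and Hoxd13 at 8.8 CPM against 24.0 CPM.

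Other mesenchyme is a broad population, so the members were also set against 2 narrower WT populations within it. Tcf21 mesenchyme was the 903 barcodes of other mesenchyme with 2 or more Tcf21 UMIs and 1 or fewer of Epcam, with a median of 22336 UMIs, and Wnt2 mesenchyme the 638 with 2 or more of Wnt2, with a median of 19015.5 UMIs. Tcf21 and Wnt2 chose these populations, so their levels there are no finding. All 3 comparisons use the same members.

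Against Tcf21 mesenchyme, 158 of 12395 genes (1.27%) were 2-fold or more higher in the members and 556 (4.49%) lower. Penk led again, at 71.9 CPM against 4.02 CPM, a log2 ratio of 4.16 (3.86 to 4.47). Fgf9 was at 24.9 CPM against 2.90 CPM, Rspo1 at 44.7 CPM against 12.3 CPM, and Hoxb8 at 47.5 CPM against 11.9 CPM. Mylpf, a fast skeletal muscle light chain, had a log2 ratio of 3.22, but 49.3% of its UMIs in the members lay in 1 cell, and the ratio was 2.04 without the highest doublet scores. Lower were Gata2, at 7.19 CPM against 44.3 CPM, and Tbx18, a factor of the ureteric and epicardial mesenchyme and the sclerotome, at 5.49 CPM against 33.3 CPM. Of 15 Hox genes of groups 1 to 6, 7 were higher and 1 was lower, and all 9 of groups 10 to 13 were lower. Markers of other cell types differed as well. Of 9 neural crest and neuronal markers counted 8 were lower (38.9 against 148 CPM in sum, Stmn2 the most abundant), as were 3 of 4 gonadal ridge markers (52.7 against 70.0 CPM) and 2 of 6 coelomic markers (175 against 400.04 CPM). The part of such cells in the other differences was not tested.

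Against Wnt2 mesenchyme, 347 of 11774 genes (2.95%) were 2-fold or more higher in the members and 932 (7.92%) lower. Fgf9 had a log2 ratio of 4.15 (3.53 to 4.84) and Penk of 3.98, and Nkx2-3 was at 20.5 CPM against 2.07 CPM. Nefm, an intermediate filament protein best known from neurons, was at 169 CPM against 22.4 CPM. On the lower side, Actg2 was at 8.53 CPM against 289 CPM, Hand1 at 6.34 CPM against 119.7 CPM, Postn at 29.5 CPM against 491 CPM and Lum at 48.0 CPM against 725 CPM. Of 12 smooth muscle genes 9 were lower and none was higher, and of 24 stromal matrix genes 16 were lower and 2 higher. Of 10 FGF pathway genes counted, 7 were higher. Markers of other cell types differed as well. Of macrophage markers 7 of the 8 counted were higher (103.49 against 21.5 CPM in sum), and of erythroid markers 8 of 10 were higher (9997 against 4262 CPM). Of endothelial markers 5 of 6 were lower (37.1 against 146 CPM), and all 3 epithelial markers counted were lower (76.8 against 376 CPM). The part of such cells in the other differences was not tested.

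The members were divided by whether they held a Tlx1 UMI. The 35 with a Tlx1 UMI had a median of 24066 UMIs and the other 342 a median of 14718, so a deeper cell was likelier to be placed with Tlx1, and 8 of the 35 rested on 1 UMI. This is a range of counts and not a type. Between the 2 sets, 151 of 9481 genes (1.59%) were 2-fold or more higher with Tlx1 and 550 (5.8%) lower.

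The 15 leading genes did not move together in this split. Nkx2-3 (log2 ratio 4.10), Kcnj8 (1.80) and Col8a1 (79.6 against 28.1 CPM) were 2-fold or more higher with Tlx1, while Penk, Foxf1, Ifitm1, Fxyd7, Gdnf and Hpse2 were 2-fold or more lower and the other 6 were within 2-fold. Nkx2-3 was at 107 CPM (89.2 to 128) in the members with Tlx1 and Nkx2-5 at 62.3 CPM (48.7 to 78.4). Slc40a1 (chromosome 1, 45908068 to 45926523), the iron exporter ferroportin, was at 98.6 CPM against 18.4 CPM in members without Tlx1, a log2 ratio of 2.42 (2.04 to 2.79). Rgs5, a G protein regulator known from pericytes, was at 111 CPM against 20.7 CPM, Gap43, a membrane phosphoprotein of growing axons, at 133 CPM against 22.0 CPM, and the muscle intermediate filament Des at 96.03 CPM against 29.4 CPM, though its log2 ratio of 1.71 came to 0.97 in thinned cells. Hand2 was at 227 CPM against 69.8 CPM and Zeb2 at 279 CPM against 88.5 CPM. In the opposite direction, Foxf1 was at 13.8 CPM against 135 CPM, a log2 ratio of -3.28 (-4.10 to -2.58), Penk at 8.65 CPM against 82.3 CPM and Pitx1 at 8.65 CPM against 121 CPM. Acta2 was at 14.7 CPM against 142 CPM. Thinned to 2000 UMIs, 0 of the 35 held a UMI of Foxf1, against 27.8% of the members without Tlx1, which puts the log2 ratio at -2.08 or lower with 3 counts as the limit. The thinned values of Penk (-0.71 or lower, with 0 of 35 against 9.65%) and Acta2 (-1.27) rest on few UMIs, and this depth does not show differences as large as those of the full counts. Markers of other cell types differed with this split as well. The macrophage list summed to 4.33 CPM with Tlx1 and 119.8 CPM without, with all 7 genes counted lower and C1qa, C1qb, C1qc and Csf1r at 0 UMIs. All 4 epithelial genes counted were lower (18.2 against 86.4 CPM in sum, Krt18 the most abundant), as were 3 of 4 coelomic genes (71.8 against 192 CPM). The part of such cells in the other differences was not tested.

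The division by Nkx2-5 shares 21 cells with that by Tlx1. Here 124 of 9481 genes (1.31%) were 2-fold or more higher and 428 (4.51%) lower. Slc40a1, Gap43 and Rgs5 were among the highest, with log2 ratios of 2.10, 2.03 and 1.92. Rspo1 was at 4.38 CPM against 52.8 CPM in members without Nkx2-5, a log2 ratio of -3.59, and Foxf1 at 21.2 CPM against 137 CPM. The members with Nkx2-5 were deeper, with a median of 28122 UMIs against 14477. In cells thinned to 2000 UMIs the log2 ratio of Rspo1 came to -0.87 or lower, with 3 counts as the limit, and that of Foxf1 to -3.70. Both values rest on few UMIs and are limited by depth. Col8a1 was among the 10 highest, at 71.5 CPM against 28.1 CPM, with a UMI in 61.1% against 14.4% of cells. All 7 macrophage genes counted were lower here too (2.19 against 123.8 CPM in sum), and so were 3 of 4 epithelial (17.5 against 88.7 CPM) and 3 of 4 coelomic genes (75.2 against 196 CPM). Both comparisons rest on the same 377 cells.

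Over the 377 members, the genes whose log2 levels per 10000 UMIs followed Tlx1 most closely were Nkx2-3 (Pearson r of 0.66), Nkx2-5 (0.59), Slitrk5 (0.47), Fam89a (0.46) and 5033428I22Rik (0.40), out of 10984 genes with a UMI in 20 or more members. For Nkx2-5 they were Tlx1 (0.59), Nkx2-3 (0.46), 5033428I22Rik (0.39), Bves (0.39) and Col13a1 (0.38). The points are cells of 1 library with unequal depth and many zeros, and these values are a description.

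Of the barcodes outside the members, 61 in WT held 2 or more Tlx1 UMIs and none of Barx1. The cuts were unlike, since the Tlx1-positive members needed 1 or more Tlx1 UMIs and these 61 had no Epcam limit. The 61 resembled the Tlx1-positive members in Nkx2-3 (98.1 CPM against 107), Tcf21 (294 against 296) and low Foxf1 (18.2 against 13.8). They differed in Hand2, at 98.1 CPM against 227 CPM in the members, and in Igf1, insulin-like growth factor 1, at 21.7 CPM against 181 CPM. Slc40a1 was at 223 CPM in them against 98.6 CPM. Markers of other cell types differed between these sets as well. The endothelial list summed to 305 CPM in the 61 barcodes and 30.3 CPM in the Tlx1-positive members, with all 4 genes counted lower in the members, among them Cdh5 at 49.7 CPM in the 61. Macrophage markers summed to 41.3 and 4.33 CPM and erythroid markers to 5211 and 12328 CPM. Their part in the other values was not tested. Over 6075 genes, 92 (1.51%) were 2-fold or more higher in the Tlx1-positive members and 118 (1.94%) lower, a comparison added after values were seen.

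Members with much and with little Barx1 were compared as well, again after values were seen. The 140 with 10 or more Barx1 UMIs had a median of 20920 UMIs and the 137 with 2 to 4 a median of 9491, so the bands differ in depth. Of 8854 genes, 72 (0.813%) were 2-fold or more higher in the upper band and 136 (1.54%) lower. Fgf9 was at 39.0 CPM against 8.59 CPM, Penk at 101 CPM against 24.1 CPM and Igf1 at 215 CPM against 73.2 CPM. Hoxb4 had a log2 ratio of 1.38. Wnt2 was at 4.27 CPM in the upper band against 47.5 CPM, with a UMI in 5.71% and 13.1% of the cells. Globin RNA went the same way, with Hbb-y at 157 CPM in the upper band and 11441 CPM in the lower, and none of the 7 globin-rich members held 10 or more Barx1 UMIs. Its part in the other differences was not tested. Nkx2-3 was highest in the lower band, at 37.2 CPM against 11.6 CPM.

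The study grouped stromal cells by Pdgfrb and Cspg4, which encodes NG2, into cells with both (DP), Pdgfrb alone (PDGFRβ-S), Cspg4 alone (NG2-S) and neither (DN). By 1 UMI of each gene, 247 of the 377 members were DN (65.5%), 100 PDGFRβ-S (26.5%), 20 DP (5.31%) and 10 NG2-S (2.65%). In other mesenchyme the shares were 48.2%, 39.1%, 8.31% and 4.36%. At 2000 UMIs per cell, PDGFRβ-S took 3.71% of members and 10.1% of other mesenchyme. Pdgfra, the related receptor, had a UMI in 26.5% of thinned members and 25.9% of thinned other mesenchyme. Of the members with Tlx1, whose depth was greater, 19 of 35 were PDGFRβ-S (54.3%) and 10 DN at full depth, and 4 of 35 PDGFRβ-S after thinning (11.4%).

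Genes of the blood stem cell niche were counted as well. Of 23 counted cytokines and receptors none was 2-fold or more higher and 4 were lower, with a median log2 ratio of -0.62. Of all genes 1.55% were higher and 8.38% lower, so finding none higher is near the share of all genes. Cxcl12, the chemokine that holds stem cells in their niche, was at 117 CPM against 223 CPM, and Vcam1, an adhesion molecule, at 15.2 CPM against 33.5 CPM. Kitl, the ligand of the Kit receptor, was at 24.3 CPM against 18.8 CPM and Igf1 at 164 CPM against 95.6 CPM, both within 2-fold.

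The KO library held almost no cells that met the rule. Of its 8165 kept barcodes 6 did (0.0735%, 0.0270 to 0.160%), against 377 of 8253 in WT, a log2 ratio of shares of -5.96 (-7.41 to -4.82). The 6 held 2, 2, 2, 2, 5 and 4 Barx1 UMIs on 58808, 28288, 9923, 11470, 29340 and 15509 UMIs in all. None of them held a Tlx1 UMI and 1 held a UMI of Nkx2-5. With 5 or more Barx1 UMIs there were 272 WT barcodes and 1 KO barcode.

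Summed over all kept barcodes, Barx1 reached 35.1 CPM in the WT library against 0.724 CPM in KO, a log2 ratio of -5.60 (-5.90 to -5.32). Tlx1 was at 4.35 CPM and 0.295 CPM (log2 ratio -3.88), and Nkx2-5 at 1.82 CPM and 0.0281 CPM (-6.02). Nkx3-2 went the other way, with 31 UMIs in WT and 70 in KO, a log2 ratio of 1.25 (0.62 to 1.91). In such sums, fewer cells and less RNA per cell cannot be told apart. Without using Barx1, 72 WT barcodes, 22 of them members, held UMIs of 2 or more of Tlx1, Nkx2-5 and Nkx3-2. Of 8165 KO barcodes 0 did, with an exact binomial upper limit of 0.0452%. A Tlx1 UMI was held by 156 WT barcodes and 27 KO barcodes. Barx1 was found in free RNA too, taken from barcodes with 100 or fewer UMIs, at 27.4 CPM (WT) and 8.91 CPM (KO). The same free RNA held Xist at 105 CPM in the KO library, where kept barcodes had 0.415 CPM, and Ddx3y at 10.1 CPM in the WT library, where they had 0.00666 CPM. The source of the Barx1 in KO free RNA was not tested.

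The 15 genes that led the members differed less between the libraries than Barx1, Tlx1 and Nkx2-5 did. Foxf1 was at 35.1 CPM in the WT library and 34.0 CPM in the other, Penk at 11.2 and 13.8 CPM, Fgf9 at 5.27 CPM in WT with a log2 ratio of 0.41, and Fgf10 at 3.90 CPM with a log2 ratio of 0.04. Of the 15 leading genes 12 lay within 2-fold between the libraries, 10 higher and 5 lower in KO, with a median log2 ratio of 0.21. No share over all genes was set beside this count, so it is a description only. Nwd2 was lower in KO, as Barx1 was, at 0.668 CPM against 2.12 CPM, a log2 ratio of -1.66 (-2.01 to -1.33). Nkx2-3, at 13.8 CPM against 5.55 CPM, and Egln3, at 5.26 CPM against 2.48 CPM, were more than 2-fold higher in KO, with log2 ratios of 1.31 and 1.08. Tcf21 stood at 76.2 CPM (WT) and 46.8 CPM (KO).

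**Figure D4:**
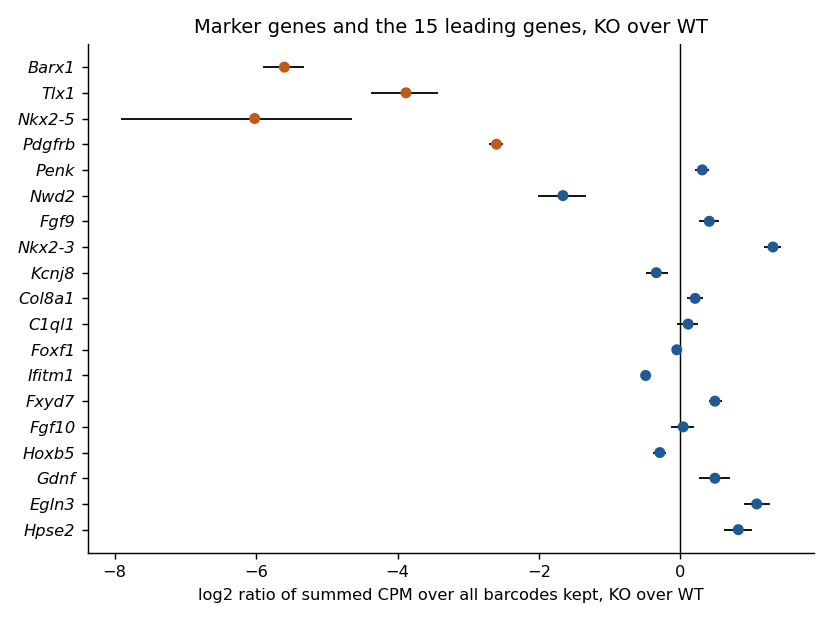
Log2 ratio of KO over WT CPM, summed over all kept barcodes, with 95% intervals for counting error. Drawn are the 3 marker genes, the deleted gene Pdgfrb and the genes that led the members. Barx1, Tlx1 and Nkx2-5 lie below -3.8, Pdgfrb at -2.60 and Foxf1 at -0.05.

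Cells with many of the leading genes were present in both libraries. UMIs of 8 or more of the 15 leading genes were found in 55 WT barcodes (0.666%) and 45 KO barcodes (0.551%), with medians of 51810 and 55817 UMIs. With 5 or more of the 15 the numbers were 330 and 343, and with 10 or more 16 and 6. Of the 55 in WT, 53 held 2 or more Barx1 UMIs, 35 were members and 1 held no Barx1 UMI. Of the 45 in KO, 44 held no Barx1 UMI, 43 held Nkx2-3 and all 45 held Foxf1. In WT, 11 of the 55 held Nkx2-3 and 50 held Foxf1, so the sets reached 8 genes with different genes. The 15 genes were picked as high in members over WT other mesenchyme, so how many WT cells held them, and with Barx1, follows in part from the choice and is no comparison with KO.

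The KO cells with 8 or more leading genes were not the same in their other genes as the members with 8 or more. The leading genes chose both sets, so their levels, such as those of Foxf1, Nkx2-3 and Penk, are no finding here. The WT members were also limited by Barx1 and Epcam, and the KO cells were not. Of genes that chose neither set, Tcf21 was at 135 CPM in the KO cells and 183 CPM in the WT members. The hedgehog target Ptch1 was at 287.5 CPM and 102 CPM. Acta2 was at 653 CPM in the KO cells and 22.7 CPM in the WT members, Myocd, the coactivator that drives smooth muscle genes, at 67.7 and 0.5 CPM, and Hand1 at 79.6 and 1.59 CPM. Pdgfrb was at 3.8 CPM in the KO cells. These cells were chosen after values were seen.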

How the data were processed

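The authors aligned the reads to mm10 (GRCm38) with Cell Ranger (version 3.1.0 in the submitters' processing notes) and deposited the unfiltered UMI counts of every gene and barcode, raw and without cell calling; these counts were used as deposited. Members and gene lists were chosen with earlier results of these data known. Cells were not called by the study's own method, and doublets were kept. UMIs were summed per population and scaled to CPM, with exact Poisson intervals for levels, exact binomial (Clopper-Pearson) intervals for shares and exact conditional binomial intervals for log2 ratios, all at 95%. A level of 0 was set to 3 counts as a bound. Genes with 50 or more UMIs over both populations were counted, without Barx1, Epcam and other genes of the rules. With 1 library per genotype no test was made, and PCR and embryo variation are outside the intervals.

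Genes named are the 15 highest and 15 lowest log2 ratios against other mesenchyme with 200 or more UMIs and a UMI in 10% or more of the cells of the higher population, the 10 at each end for the other 4 WT comparisons (100 or more UMIs among members), and genes of the lists, with a few genes left out of the text. Gene positions come from GENCODE M21. Python 3.11.15, numpy 2.4.6, scipy 1.17.1, pandas 2.3.3, scanpy 1.11.5 (Scrublet), matplotlib 3.10.9 and edgeR 4.0.16 (TMM only) in R 4.3.3 were used, and the ratios and intervals were tested on simulated data.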

Additional observations from a re-analysis of the deposited data

How the results depend on the processing

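No paired analysis was possible because each genotype has 1 library. The members numbered 278 to 394 under every alternative tried except 2: 147 with a mitochondrial limit of 5% and 626 with 1 Barx1 UMI. The 223 genes higher than in other mesenchyme became 342 with mean per-cell CPM, 130 with cells thinned to 2000 UMIs, 391 with genes of 20 or more UMIs and 1302 with genes of 1 or more. The genes counted differed, being 14422 for the 223, 10154 for the 130, 15884 for the 391 and 21786 for the 1302. The 1208 lower genes stayed between 858 and 1693. With thinned cells, the genes higher and lower became 28 and 362 against Tcf21 mesenchyme, 94 and 530 against Wnt2 mesenchyme, 51 and 146 between members with and without Tlx1, and 48 and 123 for Nkx2-5. The log2 ratio of the KO over the WT share was -2.85 with 1 Barx1 UMI, and -6.01 to -5.64 otherwise. Lists with a median below that of all genes numbered 21, and 19 to 22 under the alternatives. With thinned cells the median of the nephric markers turned from -0.84 to 1.18 and that of the coelomic markers from 0.14 to -0.24. With other mesenchyme, but not the members, freed of other cell types, the erythroid and macrophage medians turned to 4.58 and 3.53. As globin-rich and Ptprc barcodes were taken from other mesenchyme only, that turn follows in part from the filter. Medians near 0 (hedgehog, FGF, Wnt ligands, G2 and M phase, gastric and splenic factors) also changed sign under some alternatives. None of the genes at the ends of a comparison turned under the alternatives that gave a value, and genes named from the lists alone were not rerun. With a mitochondrial limit of 5%, 20 of the 30 log2 ratios named against other mesenchyme moved past their counting intervals. TMM moved all log2 ratios by 0.03, and mean per-cell CPM and thinning put the median of all genes at -0.15 and -0.11. Members with a Col1a2 UMI and barcodes without 5% globin UMIs were alternatives added after values were seen. Genes with few UMIs in thinned cells are limited by depth.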

Other observations

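The 36 WT barcodes with 2 or more UMIs of both Barx1 and Epcam, which the rule left out, had Penk at 113 CPM (98.3 to 130), Ifitm1 at 299.7 CPM and Hoxb1, which is not among the 15 leading genes, at 21.3 CPM (15.1 to 29.3) against 71.9, 215 and 6.95 CPM in the members. Tlx1, Nkx2-5 and Nkx2-3 were at 0.561, 0.561 and 1.68 CPM there, against 19.5, 11.6 and 20.5 CPM in the members.

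The 15 members with Nkx2-5 and no Tlx1 had Nkx2-3 at 8.2 CPM and Foxf1 at 40.9 CPM.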
